A study of Mus musculus with 9 samples.

Results

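Liver gene expression was compared between mice on the diet with the least carbohydrate (HF-HP, 15% of energy as carbohydrate, 35% as fat and 50% as protein) and mice on the diet with the most (LF-NP, 75% carbohydrate, 10% fat and 15% protein). The samples are the 4 pools of these diets among 9 in the series, chosen by diet and week alone: LF-NP and HF-HP after 1 week and after 12 weeks. Each pool held liver RNA of 5 male C57Bl/6J mice, 13 weeks old at week 1 and, as labelled, 22 weeks old at week 12, and was hybridised to 1 Affymetrix Mouse Gene 1.0 ST array. All groups had first eaten LF-NP for a run-in, and liver was taken in the fed state, after a measured meal. The remaining pools are LF-HP (40% carbohydrate), HF-NP (50%) and a reference pool on LF-NP at week 0. Protein came from milk protein and carbohydrate from starch and sucrose. Fat came from soybean oil in LF-NP and from soybean and palm oil in HF-HP, which also held more energy per gram. HF-HP thus differed from LF-NP in the amount and source of fat and in protein, starch and sucrose together. Within this pair of diets these cannot be told apart.

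The liver takes up dietary glucose and fructose and turns the surplus into glycogen and fatty acids. The carbohydrate-sensing factor ChREBP and the insulin-driven factor SREBP-1 raise the genes of fructose use, glycolysis and lipogenesis after carbohydrate meals, while SREBP-2 raises those of cholesterol synthesis when cell sterols are low. Fatty acids that reach the liver act through PPAR-alpha on genes of fatty acid uptake and oxidation, and amino acids in excess are stripped of nitrogen, which leaves as urea.

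The values are RMA signals on the log2 scale, so a difference of 1 is a doubling. Over all probe sets the 4 pools correlated with r between 0.9896 and 0.992. The hepatocyte markers fixed for this work (Alb, Ttr, Apoa1, Apob, Tat, Cps1, Hnf4a and Cyp2e1) had levels between 11.91 and 13.89 in all 4 pools. Adipocyte markers lay between 3.19 and 5.24, and neutrophil markers between 3.13 and 4.89. Since each value comes from whole liver, fewer cells of a type and less RNA per cell cannot be told apart.

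Of 19938 genes, 28 passed the test for HF-HP against LF-NP (0.14%, limma, adjusted p under 0.05): 17 rose (0.0853%) and 11 fell (0.0552%). At an unadjusted p under 0.05 there were 983 genes higher (4.93%) and 929 lower (4.66%), together 9.59% of those tested. The 28 genes had the same sign in both weeks, and for all of them the HF-HP pools lay wholly above or wholly below the LF-NP pools. Among all genes this lack of overlap was common, with 16.1% higher and 17.5% lower in both HF-HP pools. The differences of the 28 genes had sizes from 0.72 to 2.76 in week 1 and from 0.72 to 2.62 in week 12. With 2 pools a diet the number of calls rests on each pool in the fit: with any 1 of the 8 diet pools left out, 0 to 2 genes passed as higher and 0 to 2 as lower, and with the 4 pools alone 0 passed. The 28 are therefore given with each pool's value.

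**Figure D1:**
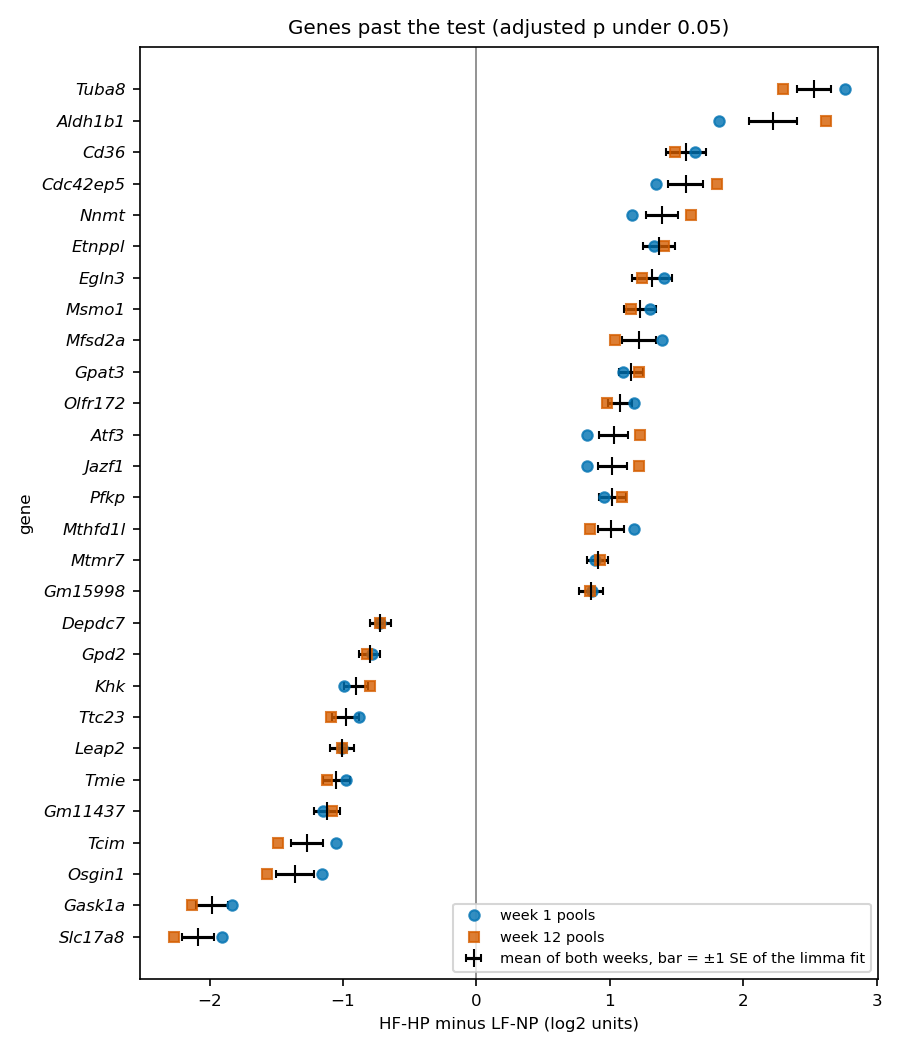
Difference between HF-HP and LF-NP pools in log2 units for the 28 genes past the test, with circles for week 1, squares for week 12 and a vertical mark with a bar of 1 SE for the mean. For every gene both weeks lie on the same side of 0; Depdc7 and Leap2 differ least between weeks, and Aldh1b1 ranges from 1.82 to 2.62.

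Among the genes that fell were enzymes of sugar and glycerol phosphate use. Khk (ketohexokinase, the first step of fructose breakdown) read 11.17 and 11.24 in the LF-NP pools of week 1 and week 12, and 10.18 and 10.45 in the HF-HP pools. Both HF-HP pools were below both LF-NP pools, and Khk fell by 0.90 (SE 0.09, adjusted p = 0.0316). Gpd2, the mitochondrial glycerol-3-phosphate dehydrogenase that carries cytosolic electrons to the respiratory chain, went from 9.44 and 9.53 on LF-NP to 8.66 and 8.71 on HF-HP. It fell by 0.80 (SE 0.08, adjusted p = 0.0280), and its pools did not overlap either.

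The promoter of Khk is shown because it holds the hexamer CACGTG, the core E-box that ChREBP, USF and clock factors can read, and that of Tuba8, the gene with the largest rise, because it holds the same hexamer. The promoter of Hmgcs1, from the cholesterol synthesis list described further on, holds a sterol element of the form TCACNCCAC. Sequences are from RefSeq on GRCm38.p6, from 250 bases before to 50 after the annotated start, with the match in capitals. Khk lies at chr5:30921309-30921608, Tuba8 at chr6:121210484-121210783 and Hmgcs1 at chr13:119690101-119690400, all on the plus strand.
Khk: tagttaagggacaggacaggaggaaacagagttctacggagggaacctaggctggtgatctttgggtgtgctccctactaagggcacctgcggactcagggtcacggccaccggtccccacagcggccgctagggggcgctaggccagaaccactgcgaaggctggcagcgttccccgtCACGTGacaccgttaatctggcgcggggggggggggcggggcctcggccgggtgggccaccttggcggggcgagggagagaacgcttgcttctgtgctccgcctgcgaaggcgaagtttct
Tuba8: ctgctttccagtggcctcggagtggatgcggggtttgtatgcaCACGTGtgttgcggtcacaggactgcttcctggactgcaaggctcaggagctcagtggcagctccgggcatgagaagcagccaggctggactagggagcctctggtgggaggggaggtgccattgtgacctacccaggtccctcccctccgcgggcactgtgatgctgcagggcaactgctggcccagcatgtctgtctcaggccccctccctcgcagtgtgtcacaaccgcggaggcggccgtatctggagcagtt
Hmgcs1: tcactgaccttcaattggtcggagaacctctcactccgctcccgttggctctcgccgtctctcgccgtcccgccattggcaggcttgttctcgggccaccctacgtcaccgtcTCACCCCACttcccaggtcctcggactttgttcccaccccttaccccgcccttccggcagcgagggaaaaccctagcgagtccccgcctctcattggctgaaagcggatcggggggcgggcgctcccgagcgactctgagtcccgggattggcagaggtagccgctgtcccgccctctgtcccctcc
The E-box begins 71 bases before the start of Khk and 207 before that of Tuba8. Promoters were found for 23 of the 28 genes, 28 windows in all, and 3 of these windows hold CACGTG on either strand (those of Khk, Depdc7 and Tuba8), 10.7% against 7.15% of all 32851 windows. Of the 6 motifs searched on both strands, the cyclic AMP element TGACGTCA, the ATF4 element TGATGCAAT and a PPAR element were in 0 windows of the 28 genes and 0 of the cholesterol synthesis list (1.79%, 0.19% and 0.04% of all windows). The sterol element was in 1 of 18 windows of the cholesterol synthesis list (5.56%, Hmgcs1, 137 bases before the start) and in 1.24% of all windows; in the same list the E-box was in 3 windows (16.7%) and the NRF2 element TGACNNNGC in 4 (22.2%, against 12.39% of all windows and 3.57% of those of the 28 genes). The sterol element was in 0 windows of the 28 genes. In the lists of fructose and polyol use, peroxisomal and microsomal oxidation, and ChREBP and SREBP-1, it was in 2 of 6 (33.3%), 1 of 12 (8.33%) and 1 of 19 windows (5.26%). In those of de novo lipogenesis and ATF4 targets it was in 0. It was thus not particular to cholesterol synthesis. A match is a description of the sequence alone.

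The largest fall was that of Slc17a8, which encodes the vesicular glutamate transporter VGLUT3. It read 8.41 and 8.39 on LF-NP and 6.50 and 6.12 on HF-HP, and fell by 2.09 on the log2 scale (SE 0.12, adjusted p = 0.00814). Gask1a, a Golgi-associated kinase, read 7.11 and 7.38 on LF-NP and 5.28 and 5.25 on HF-HP, and fell by 1.98 (SE 0.12, adjusted p = 0.00814). For both genes the pools of a diet lay close together while the diets were well apart.

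Osgin1, an oxidative stress response gene driven by NRF2, read 9.87 and 10.06 on LF-NP and 8.71 and 8.50 on HF-HP (fell by 1.36, SE 0.14). Tcim, a regulator of transcription, read 8.65 and 8.84 against 7.60 and 7.35 and fell by 1.27 (SE 0.12). Leap2 encodes a liver peptide that blocks the ghrelin receptor. Its levels were 6.78 and 6.63 on LF-NP and 5.77 and 5.62 on HF-HP, and it fell by 1.01 in both weeks. The remaining falls were Gm11437 by 1.12, Tmie by 1.05, Ttc23 by 0.98 and Depdc7 by 0.72, with adjusted p between 0.0276 and 0.0499 for the genes of this paragraph. The next gene by p, Cyp2d40, a cytochrome P450, read 8.85 and 9.33 on LF-NP and 7.75 and 7.71 on HF-HP and did not pass (difference -1.36, SE 0.16, adjusted p = 0.0503).

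Cd36, the fatty acid translocase at the plasma membrane, read 8.16 and 8.26 in the LF-NP pools and 9.81 and 9.75 in the HF-HP pools. The HF-HP pools were nearly level with each other and far above both LF-NP pools, and Cd36 rose by 1.57, or 2.97-fold (SE 0.15, adjusted p = 0.0280). The reference pool of week 0, also on LF-NP, stood at 9.05, between the diets. Gpat3, which adds the first fatty acid to glycerol phosphate, read 6.59 and 6.20 on LF-NP and 7.70 and 7.42 on HF-HP (rose by 1.16, SE 0.09, adjusted p = 0.0276). Mfsd2a, the carrier of lysophosphatidylcholine, read 10.45 and 10.55 against 11.84 and 11.59 and rose by 1.22 (SE 0.13, adjusted p = 0.0320). Msmo1, a sterol oxidase of cholesterol synthesis, rose by 1.23 and is described with its pathway.

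Nnmt methylates nicotinamide with S-adenosylmethionine. It read 11.16 and 10.86 on LF-NP and 12.33 and 12.48 on HF-HP, so this abundant transcript rose by 1.39, or 2.63-fold (SE 0.12, adjusted p = 0.0276). Etnppl, which breaks down phosphoethanolamine, read 10.30 and 10.32 against 11.64 and 11.73 and rose by 1.37 (SE 0.12, adjusted p = 0.0276). Aldh1b1, a mitochondrial aldehyde dehydrogenase, rose by 2.22, or 4.67-fold (SE 0.18, adjusted p = 0.0276). Its levels were 7.53 and 6.92 on LF-NP and 9.35 and 9.55 on HF-HP. It alone of the 28 genes had an unadjusted p under 0.05 for a difference between weeks, which did not hold over all genes (limma, adjusted p = 0.974). Mthfd1l, the mitochondrial formate-producing synthetase, read 5.51 and 5.83 on LF-NP and 6.68 in each HF-HP pool (rose by 1.01, SE 0.10, adjusted p = 0.0320).

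Tuba8, an alpha-tubulin, had the largest, from 6.40 and 6.61 on LF-NP to 9.16 and 8.90 on HF-HP, a rise by 2.53 or 5.77-fold (SE 0.13, adjusted p = 0.00800). Cdc42ep5, an effector of the GTPase CDC42, read 6.28 and 6.11 against 7.62 and 7.92 and rose by 1.57 (SE 0.13, adjusted p = 0.0276). It is the only one of the 28 with a second probe set, which differed by 0.32. Pfkp, the platelet-type phosphofructokinase of glycolysis, read 5.35 and 5.43 on LF-NP and 6.30 and 6.52 on HF-HP (rose by 1.02, SE 0.10, adjusted p = 0.0299). Egln3, a prolyl hydroxylase that marks hypoxia-inducible factors for breakdown, rose by 1.32, and Atf3, a stress-induced transcription factor, rose by 1.03. Jazf1, a nuclear cofactor, rose by 1.02, the lipid phosphatase gene Mtmr7 by 0.91 and Gm15998 by 0.86. Olfr172, an olfactory receptor gene read at 2.82 and 2.91 on LF-NP and, 1.18 and 0.98 above these, on HF-HP, rose by 1.08 near the bottom of the scale. Jazf1, Mtmr7, Pfkp and Gm15998 passed the test but lie outside the rule for named genes, and were named after their values were seen.

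Genes of carbohydrate handling were then taken as lists. Of 7 measured genes of fructose and polyol use, Khk fell, 0 rose and 6 did not pass, with 0 differences above 0 and a median of -0.49 (-0.44 in week 1 and -0.55 in week 12), beside 47.6% above 0 and a median of 0.00 over all genes. Tkfc, the triokinase that follows aldolase in fructose breakdown, read 11.75 and 11.81 on LF-NP and differed by -0.81 in week 1 and -0.82 in week 12, a mean difference of -0.81 that did not pass (adjusted p = 0.0783). Slc2a2, the GLUT2 carrier of glucose and fructose, read 11.38 in both LF-NP pools and 10.71 and 10.76 in the HF-HP pools (-0.64, adjusted p = 0.0527). The fructose carrier Slc2a5 (-0.25), Slc2a8 (-0.01) and the glycerate kinase Glyctk (0.00) were closer to level. Apart from Khk, these genes were named after their values were seen.

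Of the 14 measured genes in the glycolysis list 0 passed, and their median was 0.02; the list does not hold Pfkp, which rose. The liver pyruvate kinase Pklr stood apart with 11.96 and 11.91 on LF-NP against 10.50 and 11.13 on HF-HP (-1.12, SE 0.18, adjusted p = 0.0869), while the liver phosphofructokinase Pfkl differed by -0.03. Of 12 gluconeogenesis genes 0 passed. Pck1, which makes phosphoenolpyruvate, read 12.24 and 12.32 on LF-NP and 12.79 and 12.86 on HF-HP (0.55, adjusted p = 0.319), and G6pc, which frees glucose, differed by 0.07. In the week 0 pool, also on LF-NP, Pck1 read 12.79, level with the HF-HP pool of week 1. The coactivator Ppargc1a, named after its values were seen, read 7.90 and 8.18 on LF-NP and 9.47 and 9.79 on HF-HP (1.59, SE 0.20, adjusted p = 0.0527). Of 11 glycogen genes 0 passed, with a median of -0.09: the synthase Gys2 differed by -0.01 and the phosphorylase Pygl by -0.66 (adjusted p = 0.10).

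Regulators and enzymes of lipogenesis were taken as separate lists. Of 13 genes listed for ChREBP and SREBP-1, 0 passed, 11 differences were below 0 and the median was -0.30. Mlxipl, which encodes ChREBP, read 10.97 and 11.01 on LF-NP and 10.37 and 10.11 on HF-HP (-0.75, SE 0.10, adjusted p = 0.0571). Srebf1 read 10.90 and 11.06 against 10.04 and 10.15 (-0.89, SE 0.18, adjusted p = 0.167). In both genes the HF-HP pools were below the LF-NP pools without overlap. The week 0 pool, also on LF-NP, stood at 10.88 for Mlxipl, near the later LF-NP pools. For Srebf1 it stood at 10.31, nearer to the HF-HP pools. Rgs16, a carbohydrate-induced regulator of G protein signals named after its values were seen, read 9.41 and 9.59 on LF-NP and 7.26 and 7.15 on HF-HP, a difference of -2.30 with an SE of 0.44 (adjusted p = 0.135).

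Of 19 genes of de novo lipogenesis 0 passed, 11 were lower and 8 higher, and the median was -0.13 (-0.11 and -0.16 in the 2 weeks). Fasn, the fatty acid synthase, read 11.95 and 12.19 on LF-NP and 11.41 and 11.45 on HF-HP, with no overlap, but its difference of -0.63 had an SE of 0.28 (adjusted p = 0.563). Acaca, the acetyl-CoA carboxylase that feeds it, read 10.26 and 10.34 against 9.65 and 9.62 (-0.66, SE 0.10, adjusted p = 0.0783), and its dimmer probe set differed by -0.87. Elovl6 (-0.76) and Thrsp (-0.76), both named after their values were seen, had adjusted p of 0.0680 and 0.0631. Scd1, the desaturase, was at 13.60 and 13.68 on LF-NP and 13.49 and 13.52 on HF-HP (-0.14), near the top of the scale. Acly differed by 0.16 and Acss2 by 0.24, so members lay on both sides of 0. Scd1, Acly and Acss2 too were named after their values were seen.

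**Figure D2:**
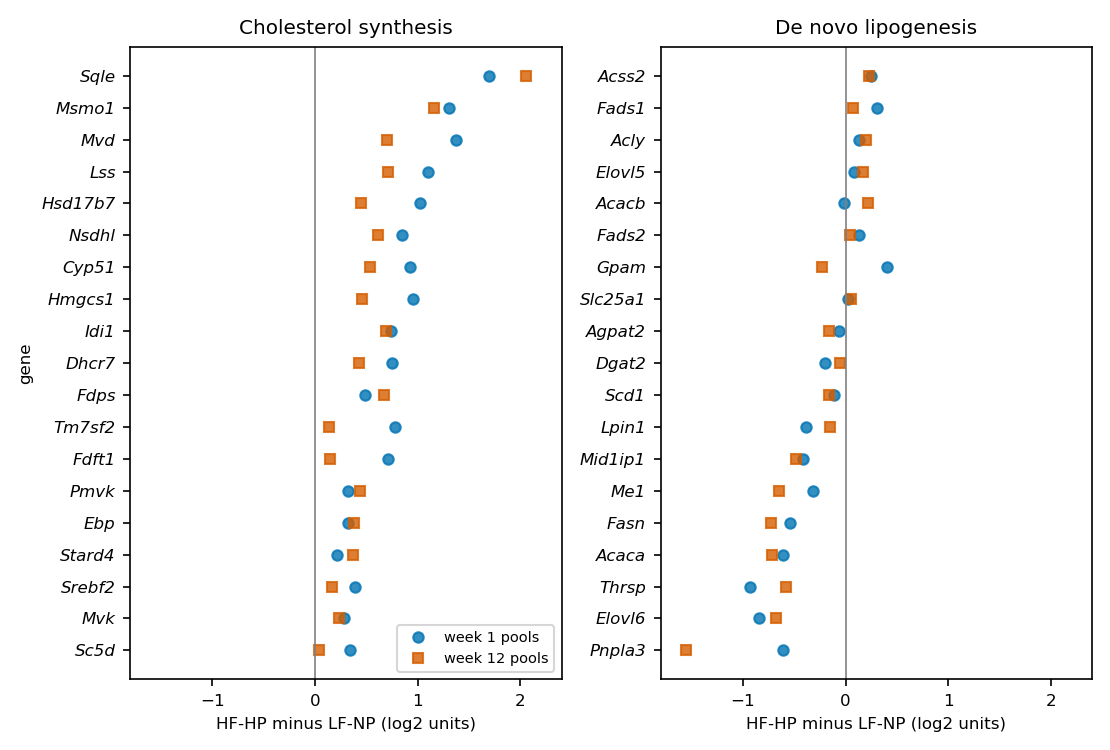
HF-HP minus LF-NP difference in log2 units for each measured gene of cholesterol synthesis (left) and de novo lipogenesis (right), with circles for week 1 and squares for week 12. All 19 cholesterol genes lie above 0 in both weeks, whereas the 19 lipogenesis genes lie on both sides, from Pnpla3 at the bottom to Acss2 at the top.

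In cholesterol synthesis all 19 measured members had a positive difference and HF-HP pools above LF-NP pools without overlap (16.1% of all genes), with a median of 0.59 (0.75 in week 1 and 0.45 in week 12). At an unadjusted p under 0.05 the list held 17 higher genes and 0 lower ones, and 1, Msmo1, passed the test. Msmo1 read 8.64 and 8.48 on LF-NP and 9.94 and 9.64 on HF-HP, and rose by 1.23 (SE 0.12, adjusted p = 0.0280). Sqle, the squalene epoxidase, named like Hmgcs1 after its values were seen, had the largest difference of the list (1.87, SE 0.22, adjusted p = 0.0503). It read 7.42 and 6.89 on LF-NP and 9.11 and 8.95 on HF-HP.

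Hmgcs1, which makes HMG-CoA and whose promoter is printed above, read 8.50 and 8.57 on LF-NP and 9.46 and 9.03 on HF-HP (0.71, adjusted p = 0.127). In 14 of the 19 genes the difference was larger in week 1. The other diets did not sit with LF-NP here: HF-NP and LF-HP means were above the LF-NP mean for all 19 genes, and the HF-HP mean was above both for 17. The reference pool of week 0, fed LF-NP too, was above both later LF-NP pools for 14 of the 19 and below both HF-HP pools for 18. The differences of this list thus depend on which LF-NP pool is taken, and the cause of the change in LF-NP pools was not tested.

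Of 16 genes of peroxisomal and microsomal oxidation, 0 passed and 8 were higher at an unadjusted p under 0.05 (4.93% of all genes were), with a median of 0.50 (0.57 in week 1 and 0.18 in week 12). Cyp4a10, a fatty acid omega-hydroxylase named after its values were seen, read 11.63 and 11.12 on LF-NP and 12.56 and 12.10 on HF-HP (0.96, SE 0.11, adjusted p = 0.0503). Ehhadh, the peroxisomal bifunctional enzyme, read 11.10 and 10.91 against 12.38 and 11.63 (0.99, SE 0.19, adjusted p = 0.136), and Acaa1a, a peroxisomal thiolase, differed by 0.03. In the week 0 pool, also on LF-NP, Ehhadh read 12.07, between the HF-HP pools. The 18 genes of mitochondrial oxidation had a median of 0.08 and 0 passed: Cpt1a, the entry step, differed by -0.18 and Cpt2 by 0.17.

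Cd36 was the only one of 18 PPAR-alpha targets to pass, and the median of that list was 0.01. Of 13 genes of fatty acid uptake and activation, Cd36 rose and 12 did not pass (median 0.06). Lpl, the lipoprotein lipase, named after its values were seen, read 6.28 and 6.48 on LF-NP and 7.73 and 7.54 on HF-HP (1.25, SE 0.17, adjusted p = 0.0609). Ketone body synthesis (5 genes, median 0.05, with Bdh1 at -0.08 and Acat1 at 0.03), lipid droplets (18 genes, median 0.03, with Plin2 at -0.03 and Plin3 at 0.04) and apolipoproteins with VLDL assembly (13 genes, median -0.05, with Apob at -0.04 and Mttp at -0.27) held no gene past the test.

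**Figure D3:**
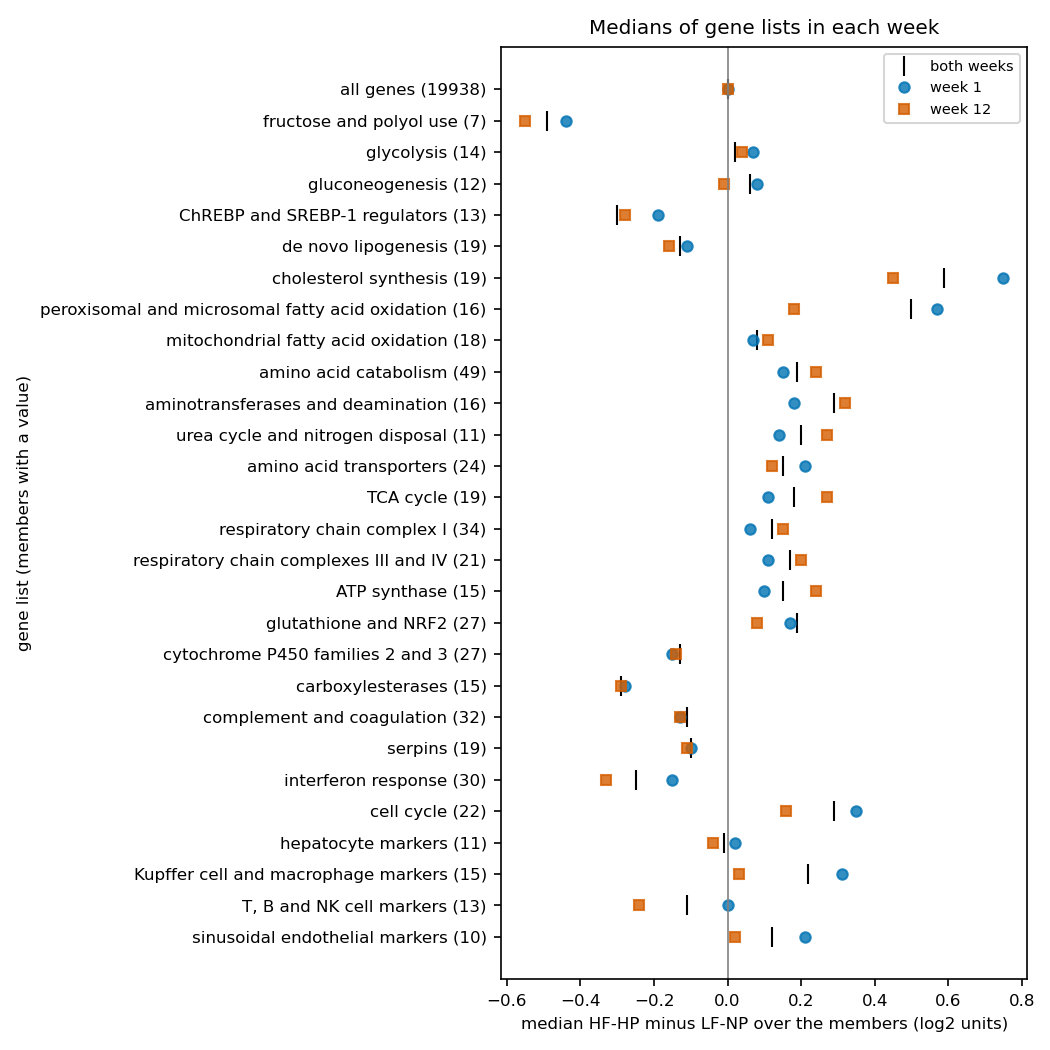
Median HF-HP minus LF-NP difference in log2 units over the members of 27 gene lists and over all genes, with the number of members in brackets; circles are week 1, squares week 12 and vertical marks the median of the means. Cholesterol synthesis lies furthest to the right (0.59) and fructose and polyol use furthest to the left (-0.49), and all genes lie at 0.

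Of 49 genes of amino acid catabolism 0 passed, but 43 differences were positive and 33 had HF-HP pools above LF-NP pools without overlap (47.6% and 16.1% of all genes), with a median of 0.19. Acmsd, which steers tryptophan breakdown away from NAD, read 8.40 and 8.03 on LF-NP and 10.28 and 10.37 on HF-HP (2.10, SE 0.25, adjusted p = 0.0503). Tat, the tyrosine aminotransferase, read 12.93 and 12.97 against 13.48 and 13.42 (0.50, SE 0.14, adjusted p = 0.314). Of 16 aminotransferases and related enzymes Etnppl rose, 15 did not pass, and the median was 0.29. The 11 urea cycle genes had a median of 0.20 and 0 passed, with Cps1, the entry step, at 13.24 and 13.23 on LF-NP and 13.46 and 13.43 on HF-HP (0.20) and Otc at 0.33. The Otc means on HF-NP (11.04) and LF-HP (11.12) were slightly above that on HF-HP (11.03). In the week 0 pool, also on LF-NP, Acmsd read 8.82, Tat 13.29, Cps1 13.29 and Otc 10.92. Each of these lay above both later LF-NP pools and below both HF-HP pools.

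Of 24 amino acid transporters 0 passed and the median was 0.15. Slc7a2, a carrier of arginine and lysine, read 11.13 in each LF-NP pool and 12.23 and 12.30 on HF-HP (1.13, SE 0.16, adjusted p = 0.0667), and Slc38a2 differed by 0.32. Of 12 genes of serine, glycine and one-carbon metabolism, Mthfd1l rose and the median was 0.03. Of 16 genes of tryptophan and NAD metabolism, Nnmt rose and the median was 0.09. Atf3 was the only one of 21 ATF4 targets, and of 19 immediate early genes, to pass. Asns, the asparagine synthetase and an ATF4 target named after its values were seen, read 5.89 and 5.73 on LF-NP, 8.78 in the HF-HP pool of week 1 and 7.21 in that of week 12 (2.19, SE 0.33, adjusted p = 0.0799). In the LF-HP and HF-NP pools Asns lay between 5.21 and 5.99. Of 12 periportal hepatocyte genes Aldh1b1 rose (median 0.22), and of 14 pericentral ones 0 passed (median -0.03, with Glul at -0.21 and Cyp2e1 at -0.04).

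Genes of mitochondrial energy metabolism had small positive medians, with 0 past the test in each list. The median was 0.18 over 19 TCA cycle genes (16 positive), 0.12 over 34 genes of complex I (31 positive), 0.17 over 21 of complexes III and IV (19 positive) and 0.15 over 15 of the ATP synthase (15 positive). Named members were Cs at -0.07, Idh3a at 0.61, Ndufa1 at 0.01, Ndufa2 at 0.04, Uqcrc1 at 0.22, Uqcrc2 at 0.12, Atp5a1 at 0.18 and Atp5b at 0.12. In the LF-HP pools the medians of these 4 lists against LF-NP lay between 0.13 and 0.17, and in the HF-NP pools between -0.04 and -0.01; these comparisons share the LF-NP pools.

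Among genes of detoxification, carboxylesterases, which split esters of lipids and drugs, had 14 of 15 members below 0 and a median of -0.29, with 0 past the test. Ces2g, named after its values were seen, read 9.24 and 9.00 on LF-NP and 8.42 and 8.39 on HF-HP (-0.71, SE 0.10, adjusted p = 0.0715). Ces1b was the exception at 0.55, and Ces1a differed by -0.18. Of 27 cytochrome P450 genes of families 2 and 3, 22 were below 0 and 0 passed (median -0.13). Cyp2b10 had 5.10 and 4.50 on LF-NP and 7.45 and 5.77 on HF-HP (1.81, SE 0.55, adjusted p = 0.362), and Cyp2b9 differed by 0.14. Of 27 genes of glutathione use and NRF2 response Osgin1 fell and 26 did not pass, and the median was 0.19, opposite in sign to Osgin1.

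Interferon response genes had 27 of 30 differences below 0, and for 23 the HF-HP pools lay below the LF-NP pools (17.5% of all genes did so). Their median was -0.25 (-0.15 in week 1 and -0.33 in week 12) and 0 passed. Ifit1, an interferon-induced RNA-binding protein, read 7.37 and 7.43 on LF-NP and 7.20 and 6.73 on HF-HP (-0.44, SE 0.14, adjusted p = 0.390), and Ifit2 differed by -0.06. T, B and NK cell markers had a median of -0.11, with 10 of 13 below 0, and the summed linear signal of 6 lymphocyte markers went from 157 to 157 in week 1 and from 185 to 156 in week 12. Their part in the interferon list was not tested. Complement and coagulation (32 genes, median -0.11, C4b at -0.27 and Hc at -0.17) and serpins (19 genes, median -0.10, Serpina1c at 0.00 and Serpina1d at -0.09) had negative medians in both weeks, with 0 past the test. Serpina12, which encodes the serpin vaspin, named after its values were seen, read 8.25 and 8.03 on LF-NP and 5.57 and 5.84 on HF-HP (-2.43, SE 0.31, adjusted p = 0.0527). Inhba, the activin A subunit, read 8.74 and 8.35 against 7.05 and 6.36 (-1.84, SE 0.32, adjusted p = 0.107), while Fgf21 differed by -0.04 (hepatokines, 22 genes, median 0.03).

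Of 22 cell cycle genes 0 passed. The differences of 20 were positive (47.6% of all genes), 17 of them higher without overlap (16.1% of all genes), and the median was 0.29. Levels were low throughout. Mki67 read 5.26 and 5.17 on LF-NP and 5.79 and 5.52 on HF-HP (0.45, SE 0.10, adjusted p = 0.209), and Top2a 4.45 and 4.42 against 4.70 and 4.74 (0.28). Cdk1, named after its values were seen, read 5.63 and 5.53 against 6.44 and 6.13 (0.70, SE 0.09, adjusted p = 0.0527). The HF-HP mean was the highest of the 4 diets for 20 of the 22 genes (29.2% of all genes), and the list medians against LF-NP were -0.07 for LF-HP and -0.08 for HF-NP. Rrm2, a subunit of ribonucleotide reductase also named after its values were seen, went the other way (-0.78, adjusted p = 0.0527).

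The 15 Kupffer cell and macrophage markers had a median of 0.22 (0.31 in week 1 and 0.03 in week 12), with Clec4f at -0.11 and Adgre1 at 0.22. Over 6 of them the summed linear signal was 1970 on LF-NP and 2470 on HF-HP in week 1, and 2670 and 2570 in week 12, so the order of the diets turned between weeks. Sinusoidal endothelial markers had a median of 0.12 (0.21 and 0.02), with Lyve1 at 0.76 and Stab2 at 0.18. The cell cycle list also had its larger median in week 1, but its pools changed otherwise. Its summed linear signal in weeks 1 and 12 was 2112 and 2040 on LF-NP, and 2680 and 2183 on HF-HP. Over all 15 Kupffer cell and macrophage markers it was 3821 and 5483 on LF-NP, and 5106 and 5410 on HF-HP. For the endothelial list it was 4401 and 5645 on LF-NP, and 5245 and 5782 on HF-HP. The part of these cell types in the cell cycle result was not tested. Medians of the other marker lists were -0.01 for hepatocytes (Alb at -0.01, Ttr at -0.05), 0.02 for stellate cells (Lrat at -0.03, Reln at 0.07), -0.16 for cholangiocytes (Krt19 at -0.35, Krt7 at -0.12), -0.04 for neutrophils (S100a8 at 0.20, S100a9 at -0.13), 0.05 for adipocytes (Adipoq at 0.03, Plin1 at -0.06), -0.08 for erythroid cells (Alas2 at -0.18, Slc4a1 at -0.09) and -0.03 for pancreas and gut (Cpa1 at -0.09, Cela1 at -0.07). No member of these lists passed.

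The other lists had medians within 0.2 of 0 and 0 genes past the test. They were the pentose phosphate pathway (-0.05, Pgd at 0.08 and Tkt at -0.23), bile acids (-0.09, Cyp7a1 at -0.09 and Cyp8b1 at -0.24), insulin and glucagon signalling (-0.02, Insr at -0.18 and Irs1 at -0.05), the circadian clock (0.01, Arntl at -0.02 and Clock at 0.04), unfolded proteins and heat shock (0.17, Hspa5 at 0.16 and Hsp90b1 at 0.22), MHC class II (0.04, H2-Aa at 0.17 and H2-Ab1 at 0.24), the acute phase (0.04, Saa1 at 0.51 and Saa2 at 0.94) and collagens and matrix (0.11, Col1a1 at 0.17 and Col1a2 at 0.16). Within the clock list, Ciart read 7.42 and 7.53 on LF-NP and 8.95 and 8.68 on HF-HP (1.34, adjusted p = 0.0503). Noct read 8.33 and 8.49 against 9.68 and 10.04 (1.45, adjusted p = 0.0503), and both genes were named after their values were seen.

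The diets with intermediate carbohydrate place these differences. By falling carbohydrate the order is LF-NP (75%), HF-NP (50%), LF-HP (40%) and HF-HP (15%), which also puts both NP diets before both HP diets, so carbohydrate and protein run in the same order. For 17 of the 28 genes the 4 diet means followed this order (60.7%), against 35.0% of the genes at an unadjusted p under 0.05 and 9.7% of all genes; the extremes of the 28 were chosen by their difference, so the first share is a description. Of the genes that fell 9 of 11 followed it, and of those that rose 8 of 17. Khk had means of 10.94 on HF-NP and 10.61 on LF-HP, and Gpd2 of 9.34 and 8.87, both between the extremes. The exceptions were Slc17a8, highest on HF-NP (8.91), and Osgin1, lowest on LF-HP (8.41).

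**Figure D4:**
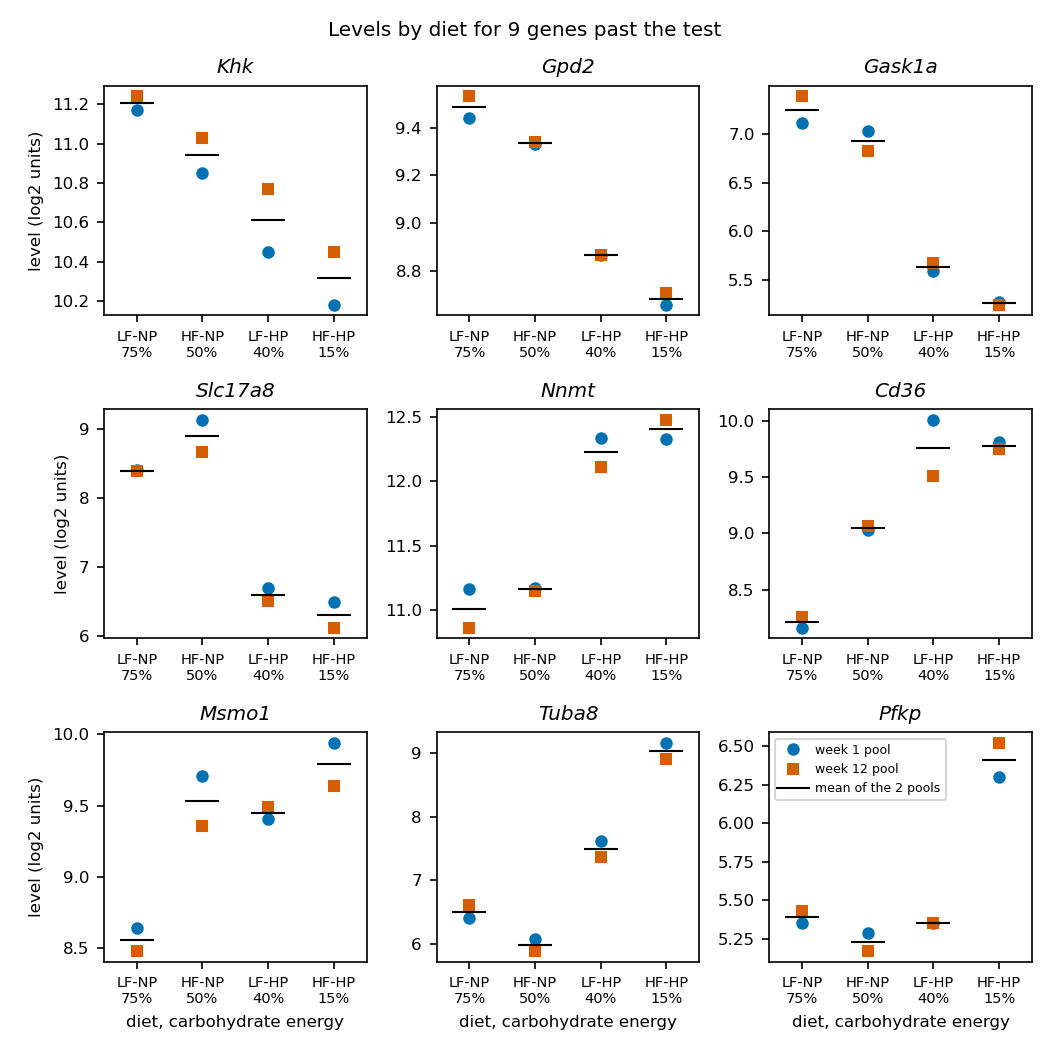
Level in log2 units of 9 genes past the test in each pool, with diets in order of falling carbohydrate energy, circles for week 1, squares for week 12 and a line for the mean of the 2 pools. Khk, Gpd2, Gask1a, Nnmt and Cd36 step in 1 direction across the 4 diets, and the HF-HP pools of Pfkp lie above all other pools.

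Genes differed in which intermediate diet they resembled. Slc17a8 and Gask1a were already low on LF-HP (means 6.60 and 5.64), and they were the 2 genes past the test for LF-HP against LF-NP (0.01%, adjusted p = 0.0464 and 0.0477). Nnmt was 12.22 on LF-HP and 11.16 on HF-NP, close to HF-HP and LF-NP respectively. Cd36 was 9.05 on HF-NP and 9.76 on LF-HP, the latter within 0.02 of HF-HP. Msmo1 stood at 9.53 and 9.45 on them, nearer to HF-HP than to LF-NP.

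A second pattern was a level near LF-NP on both intermediate diets. Pfkp had means of 5.23 on HF-NP and 5.35 on LF-HP beside 5.35 and 5.43 in the LF-NP pools, Mtmr7 5.61 and 5.80, and Jazf1 5.66 and 5.92. Tuba8 lay outside this pattern, with means of 5.97 on HF-NP and 7.49 on LF-HP beside 6.50 on LF-NP. Several of these values repeat between pools. The LF-NP pool of week 1 and both LF-HP pools shared 5.35 for Pfkp, 5.92 for Jazf1 and 6.28 for Cdc42ep5. Mtmr7 read 5.61 in both LF-NP pools and 5.80 in both LF-HP pools. The effect of such repeats on the SE, the calls and the closeness to LF-NP was not tested. The protein by fat interaction, which asks whether HF-HP differs from LF-NP by more or less than the sum of the other diets' differences, was 1.23 for Pfkp (SE 0.14), 1.78 for Cdc42ep5 (SE 0.19) and 2.07 for Tuba8 (SE 0.18). In this test 0 of 19938 genes passed (limma, smallest adjusted p = 0.0538), and 1400 had an unadjusted p under 0.05 (7.02%). Against LF-HP, HF-HP differed for 0 genes (limma, smallest adjusted p = 0.0757, shared by Tuba8, Cdc42ep5, Pfkp and, among others, the macrophage marker Adgre1; 1476 at an unadjusted p under 0.05, 7.4%). Against HF-NP it differed for 31 (0.155%), 20 higher and 11 lower. HF-NP against LF-NP gave 0 genes past the test and 767 at an unadjusted p under 0.05 (3.85%). All of these contrasts share pools.

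The 2 weeks, which share no pool, can be set against each other over all genes, whereas the 28 genes were chosen on both weeks and cannot serve for this. Taken over genes, which do not count as replicates, the differences of week 1 and week 12 correlated with Pearson's r = 0.34 and Spearman's rho = 0.18. Of 17232 genes without identical values in a week, 55.4% had the same sign in both. A difference over 1 in size was seen for 94 genes in week 1 and 128 in week 12. The test of the difference between weeks called 0 genes (limma, smallest adjusted p = 0.974), with 999 genes at an unadjusted p under 0.05 (5.01%), and has 2 residual degrees of freedom. For all 28 genes the week 0 reference pool, which was not in the fit, also lay beyond both HF-HP pools on the side of LF-NP, and for 19 of them it lay between the LF-NP and HF-HP pools. These genes were chosen by the gap between the diets, and the share over all genes was not counted. The position of the week 0 pool is therefore a description and no independent support.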

How the data were processed

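Each of the 9 liver RNA pools had 1 Affymetrix array (Mouse Gene 1.0 ST). The authors deposited log2 expression values made by robust multiarray analysis (RMA), which corrects background, normalises arrays by quantiles and summarises probes per probe set. The study's methods state default settings in the AffyPLM library and probe sets remapped to genes; the table used here lists probe sets that match the array platform's own annotation, several for some genes. Scanner files were not used here, and the number of arrays limits the precision.

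Of 35556 probe sets, 21789 had 1 gene symbol in the platform annotation, 1621 had several and 12146 had none and were left out. The brightest probe set stood for each of the 999 genes with several, which gave 19938 genes. HF-HP and LF-NP were set against each other in limma 3.58.1 (R 4.3.3), with diet (4 levels) and week over the 8 diet pools, so the estimate is the mean of both within-week differences and the other diets add only to the spread (3 residual degrees of freedom, prior 3.64). The study's methods rank genes by the ratio of mean signal on HP diets to that on NP diets, for gene set enrichment. They name no test of single genes for HF-HP against LF-NP. P-values were adjusted by Benjamini-Hochberg over all genes. As each diet and week has 1 pool, they rest on how the pools depart from the sum of diet and week terms. In these departures, variation between pools and a change of a diet's difference with time cannot be told apart. Week numbers come from the labels, which do not tie mice of different diets together. Some genes have identical RMA values in several pools (9 in all 8).

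On simulated data of this design and 19938 genes, the test called 0% of the genes given a change of 0.5 (log2), 86.4% at 1 and 98.2% at 2. The simulated noise was independent between pools, drawn from the fitted prior of the variance, with no effect of week. In the data, 59 of the 81 genes with a mean difference over 1 in size were not called. The simulated shares therefore do not carry over, and a gene without a call may still differ by that much. The 54 gene lists and the members were chosen with earlier results of these data known, so lists were described by counts and medians with no test. Of 999 list entries 104 had no value here. Genes were named by a rule: the 12 largest rises and 12 largest falls past the test with the same sign in both weeks (filled by unadjusted p where fewer passed), and from a list at most 4 that passed, or its first 2 where none did. Others are said to be named after their values were seen. Alternatives were other pools, terms, filters, priors, weights, centring, probe sets and thresholds. Motifs were counted in 32851 RefSeq promoter windows of 300 bases on GRCm38.p6. Python 3.11.15, pandas 2.3.3 and matplotlib 3.10.9 were used for tables and figures.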

Additional observations from a re-analysis of the deposited data

How the results depend on the processing

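With 2 pools a diet, the number of genes past the test depends on the settings. Most of these leave the estimated differences as they are and change the error, so the sign of the 28 genes carries no information on stability. The counts higher and lower were 17 and 11 as reported. The week number served as the replicate block; with no replicate block (the week term left out) they were again 17 and 11, and 22 of the 28 genes still passed. Changes from week 1 to week 12 in the HF-HP and LF-NP pools correlated with r = 0.04 over genes. The reported fit keeps the week term, and its estimate is the mean of the within-week differences. Week is the time on the diet, and no label ties single mice of different diets together. The counts higher and lower under the other settings follow. They were 0 and 0 with the 4 pools of both diets alone (1 residual degree of freedom), 35 and 26 with the week 0 pool added to LF-NP, 5 and 7 with additive protein and fat terms, 1 and 1 with a straight line on carbohydrate, 83 and 87 over the 9969 genes above the median level, 42 and 34 with an intensity trend, 31 and 20 with a robust prior, 10 and 7 with array weights, 62 and 56 once arrays were centred, 31 and 17 for probe sets averaged per gene, and 65 and 54 at an adjusted p under 0.1. With 1 of the 8 diet pools left out they lay between 0 and 2 for higher and between 0 and 2 for lower. Where 1 pool of a diet remained, it was assumed to vary like the others. Without either HF-HP pool or either LF-HP pool 0 genes passed, with unadjusted p under 0.05 for 3023, 1871, 1739 and 1739 genes. Array weights were 0.6 for the HF-HP pools and 1.3 for the LF-NP pools, so the HF-HP pools departed more from the fit. The interaction called 0 genes, 2 with centred arrays (Gm10785 and Tuba8), 1 with an intensity trend and 1 with a robust prior (both Gm10785), and 0 to 1 with a pool left out (Dmbt1 without LF-NP of week 1). The difference between weeks called 0 genes under each alternative run. The causes of these changes were not tested. Medians of gene lists moved beyond the replicate spread mostly when an HF-HP or LF-NP pool was left out, and those of cholesterol synthesis and of fructose and polyol use stayed within it. This spread is the SD of a list's week 1 and week 12 medians, so a list whose weeks differ more has a wider margin. For cholesterol synthesis these medians were 0.75 and 0.45, so staying within the margin does not show stability.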
